A study of Homo sapiens with 6 samples.

Results

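Mitochondrial ribosomal protein genes were compared between A498 cells with a knockdown of PTPRZ1 and their controls. A498 is an established human line grown from kidney carcinoma of the clear cell type, and the product of PTPRZ1 is a tyrosine phosphatase of the receptor type. The members were the protein-coding rows of the count table whose symbol is MRPL or MRPS followed by a number, 78 of 61860 rows, of which 49 carry an MRPL symbol (large subunit) and 29 an MRPS symbol (small subunit). Another 87 rows with such a symbol are pseudogenes or noncoding RNAs and were left out. The control group, PTPRZ-nc, and the knockdown group, PTPRZ-Si, have 3 libraries each. The labels give a plasmid as the means for the control cells and siRNA for the knockdown cells, so an effect of PTPRZ1 and an effect of the reagent cannot be told apart. Separate cultures are not named in the labels, and the spread between libraries on which all p-values rest may be technical.

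Mitochondria make a small set of respiratory chain subunits on a ribosome of their own. Its RNA comes from the mitochondrial genome, but every one of its proteins is encoded in the nucleus, made in the cytosol and imported. The small subunit reads the mRNA, the large subunit joins the amino acids, and both hold proteins inherited from the bacterial ancestor beside proteins found only in mitochondria. The symbols do not match the subunits everywhere: MRPS30 and MRPS18A, despite their names, are proteins of the large subunit, and the product of MRPS36 is known as a part of the oxoglutarate dehydrogenase complex.

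Total counts ran from 13726908 to 21469746 per library, and the members took 0.2915% to 0.3038% of them. All 37 genes of the mitochondrial genome are listed at 0, so the RNA of this ribosome and the mRNAs it translates were not analysed here. PTPRZ1 itself had 0 counts in each of the 6 libraries, and the groups rest on the labels alone. Of 8 markers of kidney epithelium and clear cell carcinoma, all had counts, with summed levels of 3095 to 3144 CPM (a gene's share of the library total, scaled between libraries) in the controls and 3153 to 3284 CPM in the knockdown, but NDUFA4L2 had only 26 counts over the 6 libraries. Of 10 markers of leukocytes, endothelium and fibroblasts, PTPRC, CD3E, CDH5 and LUM were at 0, and the summed level was 32.77 to 42.82 CPM in the controls and 23.47 to 26.28 CPM in the knockdown, most of it COL1A1 (35.08 and 22.02 CPM). Of the markers, 5 of the 7 tested of the first list rose and 1 fell, and of the 3 tested of the second list COL1A1 fell. Over all tested genes 14.0% rose and 13.4% fell. CD14 and PECAM1, also tested in the second list, did not pass. Both were higher in every knockdown library than in every control, as were 20.8% of all tested genes. CD14, of monocytes, had 0.383 and 0.845 CPM in controls and knockdown, and PECAM1, of endothelium, 0.715 and 1.36 CPM. Their part in the results was not tested, and in RNA from bulk cultures fewer cells of a type and less RNA per cell cannot be told apart.

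The promoters of these genes share sequence features, and those of the members that differed between the groups are shown here because the same letters stand near the starts of genes that fell and of genes that rose. RefSeq (GRCh38.p14) gave a window from 250 bases before to 50 after the start for 69 of the 78 members. The letters CCGGAAG, the core bound by ETS factors such as GABPA, were present on either strand in 29 of the 69 windows (42%), against 10.3% of 35116 windows of all genes and 12.8% of those of protein-coding genes. The letters AAGATGGCG, the core bound by YY1, were present in 13 windows (18.8%), against 1.75% of all windows and 2.41% of coding ones. In windows of MRPL and MRPS genes the ETS letters were present in 40.5% and 44.4%, and the YY1 letters in 19% and 18.5%. The palindromic motif of NRF1, a regulator of nuclear genes for mitochondria, was found in 1 window, 1.45% against 1.24% of all windows and 1.5% of coding ones. The SP1 letters GGGCGG stood in 60.9% of the members' windows, 45% of all windows and 56.3% of coding ones, and CCAAT, read by NFY, in 29%, 34.6% and 34.7%. Matches are given as letters only, and binding was not measured.

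Below, the capitals mark the ETS letters, read on the gene's strand or as their reverse complement CTTCCGG, in genes that were lower in the knockdown (MRPL16, MRPL47, MRPL40, MRPS16) and higher (MRPS12, MRPL20), and the YY1 letters in 1 gene that was lower (MRPL22) and 1 that was higher (MRPS30).
MRPL16, chr11:59810767-59810795, minus strand: agtgaacacaaCTTCCGGccccactgagc
MRPL47, chr3:179604660-179604688, minus strand: ggcttgagacgCCGGAAGtgacgctatcg
MRPL40, chr22:19432523-19432551, plus strand: ggggcgcacgcCCGGAAGcggcgagggta
MRPS16, chr10:73252622-73252650, minus strand: cggatcatccgCTTCCGGagtcgaggttt
MRPS12, chr19:38930928-38930956, plus strand: acggatagcgcCCGGAAGaggctagaagc
MRPL20, chr1:1407297-1407325, minus strand: caggggctgacCCGGAAGcgctcgtgacc
MRPL22, chr5:154941098-154941122, plus strand: gggagggcgaAAGATGGCGgcggca
MRPS30, chr5:44808950-44808978, plus strand: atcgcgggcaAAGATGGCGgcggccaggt
The ETS letters were present in 4 of 7 windows of members that were lower and in 2 of 6 of those that were higher. Over the tested members the median log2 fold change was -0.02 in the 28 with these letters and 0.01 in the 38 without them.

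Most mitochondrial ribosomal protein genes did not pass the test between knockdown and control cells, and those that passed changed by small amounts in both directions. Of the 78 members, 75 passed the filter on low counts and were tested with edgeR's quasi-likelihood test over all genes, with a call at an adjusted p of at most 0.05. Among the 75, 7 fell and 6 rose, and the other 62 were not called. That is 17.3% called, against 27.4% of all 15476 tested genes, with 9.33% lower against 13.4% and 8% higher against 14.0%. At mean levels of 5 CPM or more, 18.1% of 72 members were called, against 35.4% of 11018 genes. The median log2 fold change was -0.02 over the members and 0.00 over all tested genes, and the members ranged from -0.44 to 0.44. Called members differed 1.202-fold at the median and at most 1.36-fold, while the median of all called genes was 1.26-fold. The library left out moved the count of called members: it was 5 without PTPRZ-Si replicate 3, 7 without PTPRZ-nc replicate 1 or PTPRZ-Si replicate 1, 8 without PTPRZ-Si replicate 2, 12 without PTPRZ-nc replicate 3 and 15 without PTPRZ-nc replicate 2. The share called over all tested genes moved as well. In the same order of libraries it was 20.4%, 21.8%, 19.9%, 21.3%, 23.9% and 27.6%.

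For the members that did not pass, the 95% interval of the difference shows how much change these libraries leave room for. For 35 of the 62 the interval lay within 1.2-fold in both directions, and for 58 within 1.5-fold. MRPL37, a large subunit protein found only in mitochondria and the member with the highest level per length, had 145.7, 143.7 and 147.8 CPM in the controls and 148.1, 145.3 and 146.9 CPM in the knockdown. The groups overlapped, and its log2 fold change was 0.01 (95% interval -0.08 to 0.10). With MRPL37, the members nearest to no change were MRPL12 and MRPS25, at log2 fold changes of 0.00 (95% interval -0.20 to 0.21) and -0.01 (-0.24 to 0.22). Of the exon bases of MRPL12 68.2% lie in exons of AC139530.2 on the same strand, which had 0 counts. For MRPS25 22.2% lie in exons of NR2C2 on the other strand. The part of these overlaps in the counts was not tested. Of the 27 members whose interval reached beyond 1.2-fold, 8 had means under 10 CPM in both groups, among them MRPL38 (-0.80 to 0.12) and MRPS24 (-0.68 to 0.86). Others of the 27 were shifted to 1 side, and some of these intervals, which are not adjusted for the number of genes, left out 0. Examples are MRPL58 (-0.42 to -0.02) and MRPL54 (0.06 to 0.49).

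**Figure D1:**
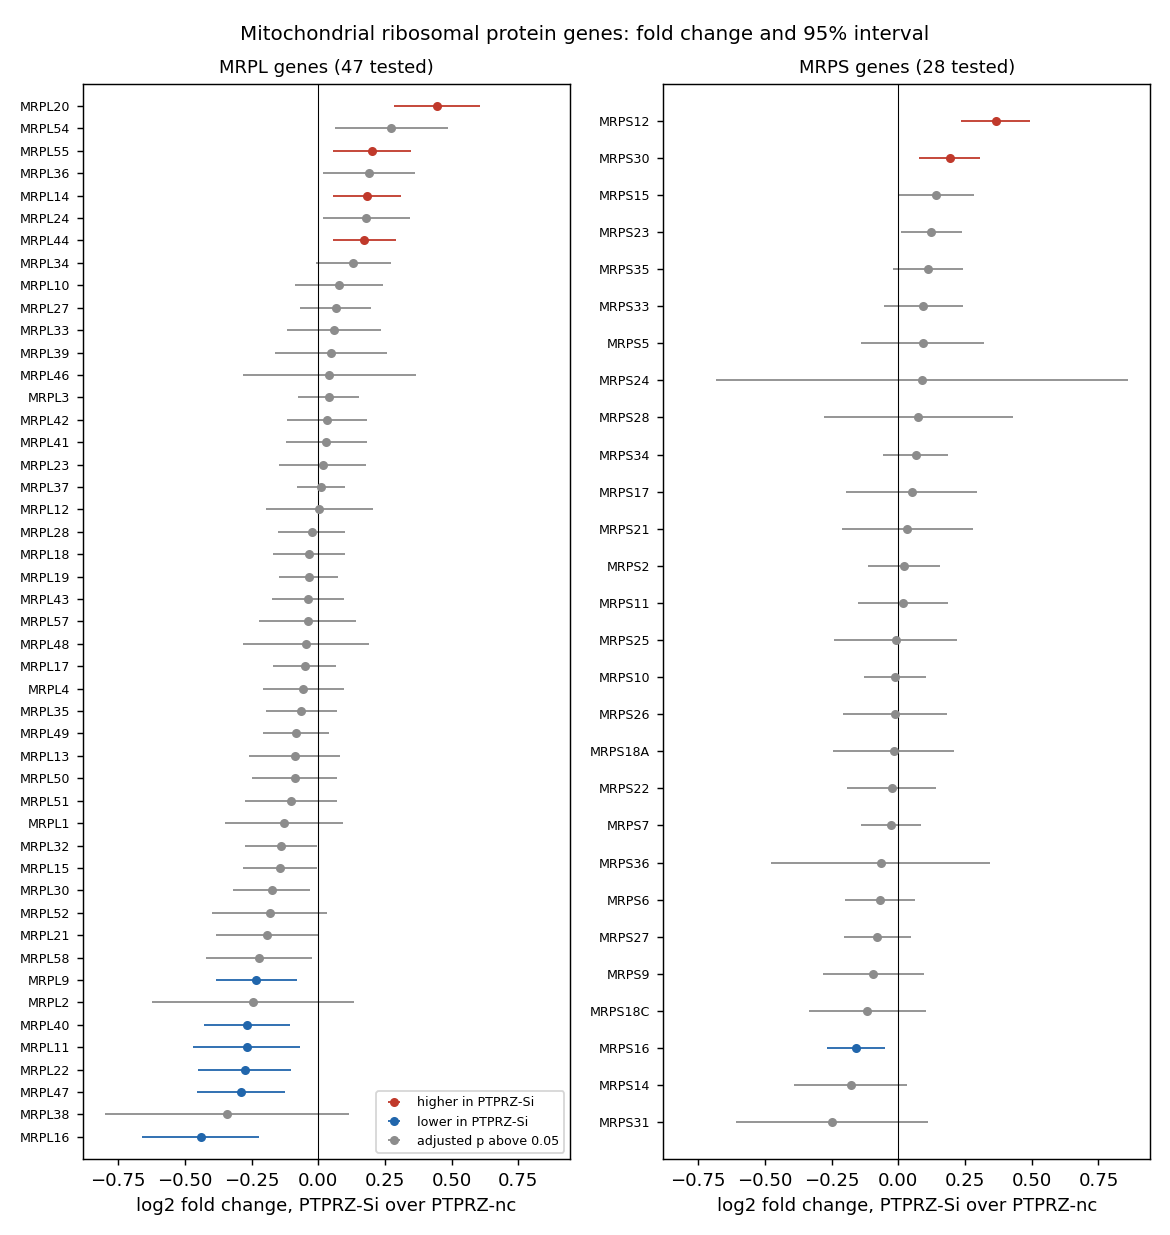
Log2 fold change of each tested member, PTPRZ-Si over PTPRZ-nc (x axis), with MRPL genes on the left and MRPS genes on the right, sorted by value. Points are edgeR estimates, bars are 95% intervals, blue marks the 7 genes called lower, red the 6 called higher and grey the 62 that did not pass.

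Control and knockdown libraries were fully separate for 19 of the 75 tested members (25.3%), 10 with every knockdown library below every control and 9 with every one above. Over all tested genes the groups did not overlap for 40.8%, 20.0% below and 20.8% above.

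**Figure D2:**
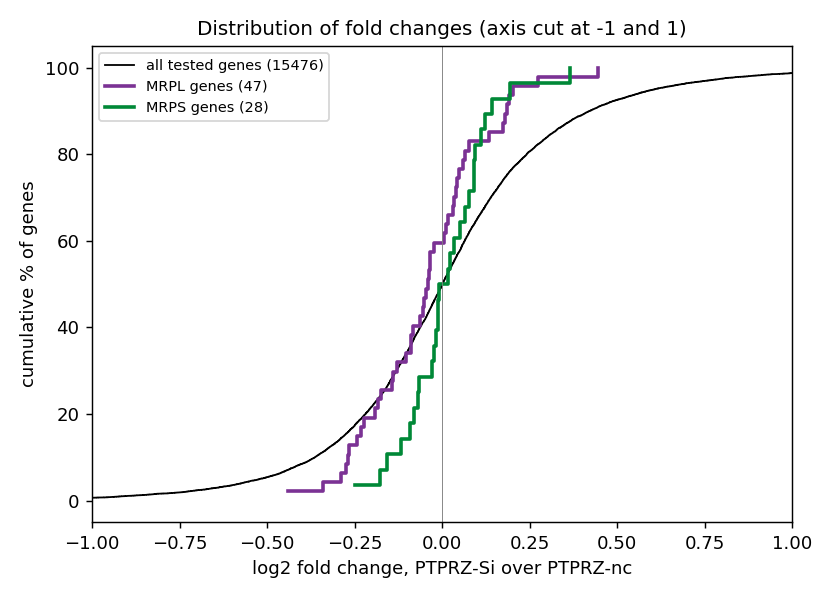
Cumulative percent of genes (y axis) by log2 fold change, PTPRZ-Si over PTPRZ-nc (x axis, shown from -1 to 1), for all 15476 tested genes, 47 MRPL genes and 28 MRPS genes. Both curves of members rise more steeply than that of all genes: their values lie between -0.44 and 0.44.

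Large and small subunit genes were set side by side by counts and medians. Of 47 tested MRPL genes 6 fell, 4 rose and 37 did not pass, with a median log2 fold change of -0.04 and values below 0 in 28 of them. Of 28 tested MRPS genes 1 fell, 2 rose and 25 did not pass, with a median of 0.00 and values below 0 in 14. Called were 21.3% of the MRPL and 10.7% of the MRPS genes, against 27.4% of all tested genes. Values lay below 0 in 59.6% and 50%, against 49.8% of all tested genes. With MRPS30 and MRPS18A counted in the large subunit and MRPS36 in neither, a split chosen after the counts were at hand, the large subunit had 6 lower and 5 higher of 49 (median -0.04) and the small subunit 1 lower and 1 higher of 25 (median 0.02). Of 45 members with a counterpart in bacteria, all tested, 6 fell and 3 rose (median -0.03), 13.3% and 6.67%. Of 29 tested members classed as mitochondria-specific 1 fell and 3 rose (median -0.01), 3.45% and 10.3%. Over all tested genes 13.4% fell and 14.0% rose. MRPS18A was counted in the mitochondria-specific class, although its paralog MRPS18C was counted among those with a bacterial counterpart.

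Summed by symbol, MRPL genes had 1965 ± 37.4 CPM in the controls and 1938 ± 51.3 CPM in the knockdown (SD, n = 3 each), and MRPS genes 1033 ± 4.0 and 1059 ± 16.7 CPM. The ratio of the MRPL to the MRPS sum was 1.931, 1.920 and 1.858 for PTPRZ-nc and 1.829, 1.850 and 1.810 for PTPRZ-Si (replicates 1, 2 and 3 of each). The groups did not overlap, but the lowest control and the highest knockdown library differed by less than the controls did among themselves. This ratio is one of symbols, not of subunits. The MRPS sum holds MRPS36 and the large subunit genes MRPS18A and MRPS30, and MRPS30 had 70.49 CPM in the controls and 80.46 CPM in the knockdown. With MRPS18A and MRPS30 counted in the large subunit and MRPS36 in neither, the groups overlapped. The ratio of PTPRZ-Si replicate 2 was then above that of PTPRZ-nc replicate 3. All members together summed to 2998 ± 36.1 and 2997 ± 68.0 CPM, a difference smaller than the spread between libraries.

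Of the 7 genes that fell 6 carry MRPL symbols, which is 12.8% of the tested MRPL genes, near the 13.4% over all tested genes. MRPL16 (chromosome 11 from 59806135 to 59810872, minus strand, in GRCh38 as annotated by GENCODE 29, as for all genes here), whose product lies in the part of the large subunit that binds transfer RNA, had 24.47, 29.89 and 23.47 CPM in the controls and 19.73, 20.64 and 16.79 CPM in the knockdown. All knockdown libraries were below all controls, and control replicate 2 was the highest. Its log2 fold change was -0.44 (SE 0.103, edgeR adjusted p = 0.00394), the largest fall among the tested members, and it passed in all 13 alternatives tried.

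MRPL22 (chromosome 5 from 154941070 to 154969411, plus strand), which lines the exit tunnel, had 26.29, 23.09 and 24.27 CPM in the controls and 19.38, 21.31 and 20.12 CPM in the knockdown, with no overlap (log2 fold change -0.28, SE 0.0828, edgeR adjusted p = 0.0196). MRPL47 (chromosome 3 from 179588285 to 179604654, minus strand), the counterpart of a bacterial protein near the tunnel's exit, had 32.30, 30.11 and 30.89 CPM in the controls and 24.47, 27.75 and 24.09 CPM in the knockdown, also with no overlap (-0.29, edgeR adjusted p = 0.0103). ACTL6A, whose exons overlap those of MRPL47 on the other strand, had 56.99 and 51.90 CPM in the 2 groups and did not pass. MRPL11 (chromosome 11 from 66435075 to 66466738, minus strand), at the base of the stalk that recruits translation factors, had 24.82, 26.82 and 21.60 CPM in the controls and 19.24, 22.18 and 19.04 CPM in the knockdown. Its groups overlapped, since knockdown replicate 2 was above control replicate 3 (log2 fold change -0.27, edgeR adjusted p = 0.0456). PELI3, which overlaps MRPL11, had 9.684 and 11.29 CPM in the 2 groups and did not pass. MRPL22 did not pass without PTPRZ-nc replicate 1 or PTPRZ-Si replicates 1 or 3 (edgeR adjusted p = 0.105, 0.0766 and 0.0682), nor MRPL47 without PTPRZ-nc replicate 1 or PTPRZ-Si replicate 3 (0.0508 and 0.0647). MRPL11 did not pass with DESeq2 or limma-voom (adjusted p = 0.0651 and 0.0586), nor without PTPRZ-nc replicates 1 or 2 or PTPRZ-Si replicates 1 or 3 (edgeR adjusted p = 0.125, 0.131, 0.137 and 0.174).

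MRPL40 (chromosome 22 from 19431902 to 19436075, plus strand), a protein found only in mitochondria, had 27.45, 26.09 and 28.75 CPM in the controls and 23.00, 23.42 and 22.17 CPM in the knockdown, with no overlap (log2 fold change -0.27, SE 0.0761, edgeR adjusted p = 0.0148). MRPL9 (chromosome 1 from 151759643 to 151763564, minus strand), which reaches out from the large subunit, had 43.63, 45.75 and 40.97 CPM in the controls and 37.57, 34.03 and 39.20 CPM in the knockdown (-0.23, edgeR adjusted p = 0.0233). The 1 small subunit gene that fell was MRPS16 (chromosome 10 from 73248843 to 73252693, minus strand), with 85.16, 86.96 and 83.11 CPM in the controls and 78.70, 77.00 and 73.21 CPM in the knockdown (-0.16, edgeR adjusted p = 0.0304). All knockdown libraries of MRPL9 and MRPS16 were below all controls. Exons of MRPL9 overlap those of OAZ3, which had 1.135 and 1.215 CPM in the 2 groups. Exons of MRPS16 overlap those of DNAJC9 on the same strand, a chaperone gene that itself fell from 33.43 to 25.03 CPM (edgeR adjusted p = 0.000968), and the part of that overlap was not tested. MRPL40 did not pass without PTPRZ-nc replicate 3 or PTPRZ-Si replicate 3 (edgeR adjusted p = 0.0591 and 0.0691), and MRPL9 not without PTPRZ-nc replicate 1 or PTPRZ-Si replicates 1 or 2 (0.066, 0.0519 and 0.126). MRPS16 lost its call without PTPRZ-nc replicate 1 or any of PTPRZ-Si replicates 1, 2 and 3 (edgeR adjusted p = 0.0802, 0.0506, 0.0669 and 0.153).

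MRPL20 and MRPS12 had the largest rises. MRPL20 (chromosome 1 from 1401908 to 1407313, minus strand), a protein of the large subunit with a bacterial counterpart, had 37.27, 36.76 and 30.57 CPM in the controls and 46.77, 48.91 and 46.13 CPM in the knockdown. The groups did not overlap, and the log2 difference was 0.44 (SE 0.0765, edgeR adjusted p = 0.000328). The antisense gene MRPL20-AS1 overlaps it, and the counting had no strand option set. MRPL20-AS1 had 16.47 and 18.35 CPM in the 2 groups and did not pass. MRPS12 (chromosome 19 from 38930548 to 38933162, plus strand), a protein of the decoding centre, where codons are read, had 47.37, 52.18 and 49.40 CPM in the controls and 63.71, 66.72 and 61.05 CPM in the knockdown. All knockdown libraries were above all controls (log2 fold change 0.36, SE 0.0611, edgeR adjusted p = 0.000253). SARS2, the mitochondrial seryl-tRNA synthetase gene that overlaps the start of MRPS12 on the other strand, had 2.892 and 3.841 CPM and did not pass (edgeR adjusted p = 0.198). Like MRPL16, MRPL20 and MRPS12 passed in all 13 alternatives, and they were the only 3 of the 13 called members to do so, while all 13 kept their direction.

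The other members that rose did so by smaller amounts. MRPS30 (chromosome 5 from 44808925 to 44820428, plus strand), a large subunit protein in spite of its symbol, had 67.00, 73.51 and 70.95 CPM in the controls and 79.89, 79.01 and 82.47 CPM in the knockdown (log2 fold change 0.19, SE 0.0538, edgeR adjusted p = 0.0128). MRPL55 (chromosome 1 from 228106679 to 228109312, minus strand), found only in mitochondria, had 38.03, 33.25 and 37.93 CPM in the controls and 41.13, 42.15 and 42.66 CPM in the knockdown (0.20, edgeR adjusted p = 0.0377). In both genes all knockdown libraries were above all controls, and for MRPL55 control replicate 2 was the lowest library. MRPL14 (chromosome 6 from 44113454 to 44127457, minus strand), which faces the small subunit, had 48.13, 44.87 and 45.34 CPM in the controls and 53.95, 51.84 and 51.65 CPM in the knockdown (0.18, edgeR adjusted p = 0.0309). MRPL44 (chromosome 2 from 223957404 to 223967714, plus strand), whose fold is that of an RNase III enzyme, had 57.48, 58.90 and 58.78 CPM in the controls and 62.74, 68.07 and 66.29 CPM in the knockdown (0.17, edgeR adjusted p = 0.0286). Neither of these overlapped between groups. MRPS30 did not pass without PTPRZ-nc replicate 1 or PTPRZ-Si replicate 3 (edgeR adjusted p = 0.075 and 0.0714).

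The calls of MRPL14, MRPL55 and MRPL44 changed with several settings. MRPL14 did not pass with DESeq2 (adjusted p = 0.053) or with no filter on low counts (edgeR adjusted p = 0.0645), nor without PTPRZ-nc replicates 2 or 3 or any of PTPRZ-Si replicates 1, 2 and 3 (edgeR adjusted p = 0.0537, 0.0864, 0.123, 0.0714 and 0.0737). MRPL55 did not pass with DESeq2 (adjusted p = 0.0614), with scaling by total counts or with no filter (edgeR adjusted p = 0.0517 and 0.0579). Nor did MRPL55 pass without PTPRZ-nc replicate 2 or any of PTPRZ-Si replicates 1, 2 and 3 (edgeR adjusted p = 0.12, 0.0757, 0.0992 and 0.127). MRPL44 lost its call with no filter (edgeR adjusted p = 0.0611) and without PTPRZ-nc replicates 1 or 3 or PTPRZ-Si replicates 2 or 3 (0.0941, 0.0555, 0.136 and 0.101).

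**Figure D3:**
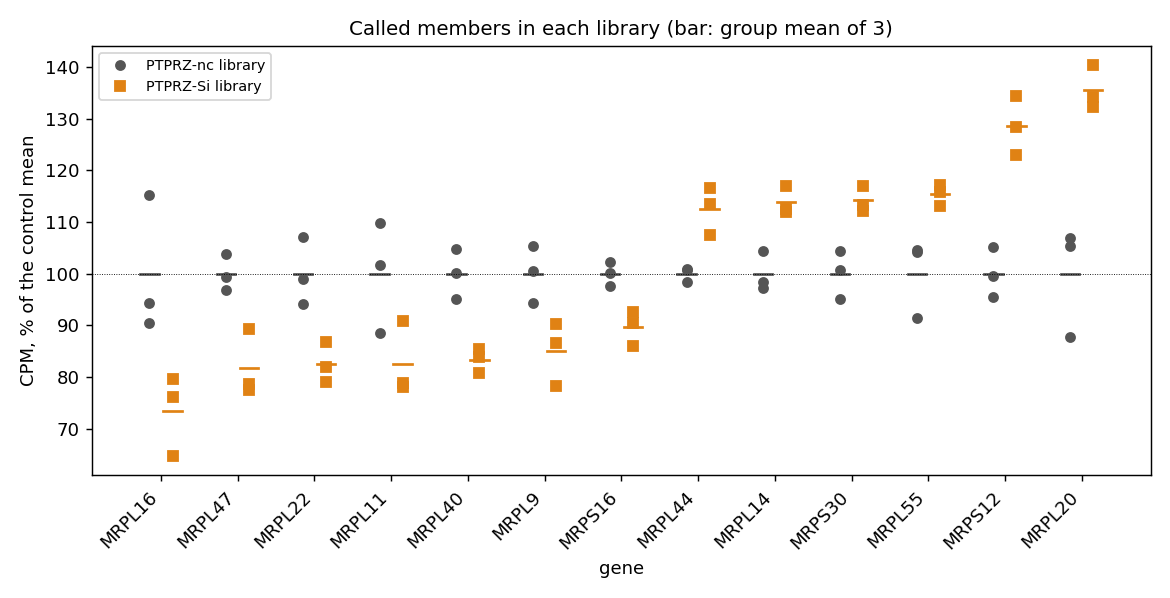
Level of the 13 called members in each library, as percent of the gene's control mean (y axis, from CPM), with the controls as grey circles, the knockdown as orange squares and bars for the means of 3 libraries. Knockdown means run from 73.4% to 89.7% for the genes that fell and from 112.5% to 135.6% for those that rose, and only for MRPL11 do the groups overlap.

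The MRPS18 genes are paralogs whose products occupy different places in the ribosome. MRPS18C, of the small subunit, had 12.56, 12.35 and 11.79 CPM in the controls and 11.71, 10.94 and 11.23 CPM in the knockdown. The groups did not overlap, but it did not pass (log2 fold change -0.12, 95% interval -0.34 to 0.10). MRPS18A, which sits in the large subunit, had 14.54, 11.84 and 14.56 CPM and 12.83, 14.02 and 13.71 CPM, with overlap (log2 fold change -0.02, 95% interval -0.24 to 0.21). MRPS18B, the remaining paralog, had 1 count in all 6 libraries. Exons on the other strand overlap 40.2% of the exon bases of MRPS18C (ABRAXAS1) and 47% of those of MRPS18A (RSPH9). What this did to their counts was not tested.

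Some members had few or no counts. MRPS18B lies on chromosome 6 from 30617709 to 30626395, and all 31 protein-coding genes within 500 kb of it had under 100 counts over the 6 libraries. MRPL45, whose product anchors the ribosome at the inner membrane, was counted 3, 1 and 7 times in PTPRZ-nc and 10, 2 and 6 times in PTPRZ-Si. It lies on chromosome 17 from 38297023 to 38323218, where 13 of 17 neighbours within 500 kb (76.5%) had under 100 counts, against 38.8% of all 19862 protein-coding genes. MRPL53 had 0 counts in each library, a limit of 0.0607 CPM over the 3 controls and 0.0527 CPM over the 3 knockdown libraries for counting error only. Around MRPL53, on chromosome 2 from 74471958 to 74473322, 8 of 29 neighbours (27.6%) were that low, and 45.2% of its exon bases lie in exons of CCDC142 on the same strand, which had 1815 counts. MRPS24, tested with 99 counts in all, has 23.2% of its exon bases in the read-through gene URGCP-MRPS24, which had 1 count. By the counter's default a read pair that falls in several genes or places is left out, and the part of this in the low counts was not tested.

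Per length of exon, levels of the tested members spread widely. The lowest were MRPS24 (0.354 FPKM, CPM per kilobase of exon), MRPL46 (0.897), MRPL38 (0.936) and MRPS5 (1.66), the highest MRPL37 (57.4), MRPL15 (55.1), MRPL41 (51.7) and MRPL14 (51.4), and the median was 14.4 FPKM. The length is that of all annotated exons of a gene joined, which for MRPL46 came to 6432 bases. Of the 8 named here only MRPL14 was called. Of 35 tested members with no exon shared with another gene 3 fell and 3 rose, and of 40 with shared exons 4 fell and 3 rose. These are 17.1% and 17.5% called, against 27.4% of all tested genes.

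Beyond the members, 5 proteins of this ribosome carry other symbols, DAP3, AURKAIP1, PTCD3, GADD45GIP1 and CHCHD1. In edgeR's test 0 of the 5 passed, 0 had an unadjusted p under 0.05, and 0 passed with DESeq2 or limma-voom, and their log2 fold changes ran from -0.09 to 0.08. Over all tested genes edgeR called 27.4%, DESeq2 24.3% and limma-voom 27.4%. A count over 5 genes is too small to be told apart from these shares. DAP3, a GTP-binding protein of the small subunit, had 85.53 and 88.05 CPM in controls and knockdown.

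Of 27 genes for assembly of the ribosome 4 fell and 2 rose, 22.2% called against 27.4% of all tested genes (median log2 fold change -0.08, against 0.00 for all tested genes). RCC1L, which helps to make the large subunit's RNA, went from 97.62 ± 6.04 CPM down to 77.12 ± 4.56 CPM (SD over 3 libraries in each group, edgeR adjusted p = 0.000373), and the GTPase GTPBP10 from 37.51 ± 2.59 to 29.93 ± 2.94 CPM (edgeR adjusted p = 0.00682). MALSU1, which keeps the large subunit from joining too early (log2 fold change -0.33), and ERAL1, a chaperone of the small subunit's RNA (-0.15), also fell, while METTL15, which methylates that RNA (0.34), and the helicase DHX30 (0.14) rose. Of these, 3 depended on single libraries. MALSU1 did not pass without PTPRZ-nc replicate 3 or PTPRZ-Si replicates 1 or 3 (edgeR adjusted p = 0.0598, 0.0913 and 0.146), ERAL1 not without PTPRZ-nc replicates 1 or 3 or PTPRZ-Si replicates 2 or 3 (0.151, 0.0783, 0.171 and 0.186), and DHX30 not without PTPRZ-nc replicates 1 or 3 or any of PTPRZ-Si replicates 1, 2 and 3 (0.0655, 0.0807, 0.116, 0.0536 and 0.164). ERAL1 and DHX30 did not pass with DESeq2 either (adjusted p = 0.072 and 0.0577), nor with the replicate number as a block (edgeR adjusted p = 0.0574 and 0.0551). DHX30 also lost its call with scaling by total counts and with no filter (edgeR adjusted p = 0.0535 and 0.0963).

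Of 18 mitochondrial translation factors 2 fell and 3 rose, 27.8% called against 27.4% of all tested genes (median -0.01). GFM2, which frees ribosomes after translation, fell from 66.29 ± 1.47 to 50.61 ± 3.16 CPM (edgeR adjusted p = 0.000111, n = 3 each), and the initiation factor MTIF2 from 51.22 ± 2.53 to 40.84 ± 1.2 CPM (edgeR adjusted p = 0.00102). OXA1L, which inserts new chains into the inner membrane (0.21), PDF, which removes the formyl group of the first methionine (0.48), and the rescue factor MTRFR (0.26) rose. PDF did not pass without PTPRZ-nc replicate 3 (edgeR adjusted p = 0.0618), and MTRFR not without PTPRZ-nc replicates 1 or 2 or PTPRZ-Si replicate 1 (0.0716, 0.0734 and 0.126). Of 19 tested genes for loading mitochondrial transfer RNA, 2 fell and 0 rose in edgeR's test. That is 10.5% called, all lower, against 27.4% called and 13.4% lower over all tested genes. Among those that fell was AARS2, for alanine, from 33.58 ± 2.65 to 25.25 ± 1.58 CPM (edgeR adjusted p = 0.00102, n = 3 each). By unadjusted p under 0.05 in edgeR 3 were lower and 0 higher, and DESeq2 and limma-voom each called 2 lower and 0 higher. DESeq2 called 24.3% and limma-voom 27.4% of all tested genes, and no such share was taken by unadjusted p.

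Of 13 genes for copying and transcribing mitochondrial DNA and processing its RNA, 2 fell and 3 rose, 38.5% called against 27.4% of all tested genes (median 0.01). PNPT1, which degrades RNA in mitochondria, fell from 89.09 ± 4.51 CPM in controls to 65.51 ± 1.85 CPM in the knockdown (edgeR adjusted p = 1.08e-05), as did POLG2, a subunit of the DNA polymerase (-0.28). ELAC2, which trims transfer RNA, rose from 135.0 ± 4.74 to 160.9 ± 2.62 CPM, and TFAM, which packs and transcribes mitochondrial DNA, from 70.49 ± 1.49 to 81.74 ± 3.60 CPM (edgeR adjusted p = 0.000417 and 0.00648). The nuclease MGME1 rose as well (0.24). POLG2 did not pass with DESeq2 (adjusted p = 0.0556) or without PTPRZ-nc replicate 3 or any of PTPRZ-Si replicates 1, 2 and 3 (edgeR adjusted p = 0.0989, 0.0717, 0.0657 and 0.0542), and MGME1 not without PTPRZ-nc replicates 1 or 3 or PTPRZ-Si replicate 2 (0.072, 0.0636 and 0.0973).

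Of 24 tested genes of protein import 3 fell and 1 rose, 16.7% called against 27.4% of all tested genes (median 0.01). By direction, 12.5% were lower against 13.4% of all tested genes, and 4.17% higher against 14.0%. DNAJC19, a co-chaperone of the import motor, fell from 26.14 ± 1.61 CPM in controls to 19.18 ± 1.12 CPM (edgeR adjusted p = 0.000699), and TOMM22, a receptor of the outer membrane (-0.25), and PMPCB, a subunit of the protease that removes import signals (-0.20), fell too. TIMM23, the channel of the inner membrane, rose (0.24, edgeR adjusted p = 0.00318). TOMM22 did not pass without PTPRZ-Si replicates 1 or 3 (edgeR adjusted p = 0.0533 and 0.0641), and PMPCB not without PTPRZ-nc replicate 3 or PTPRZ-Si replicates 1 or 3 (0.0528, 0.0594 and 0.0614).

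Among 11 regulators of nuclear genes for mitochondria 3 rose and 0 fell in edgeR's test, 27.3% called against 27.4% of all tested genes (median 0.10). By unadjusted p under 0.05 4 were higher and 0 lower, and DESeq2 and limma-voom each called 3 higher and 0 lower. These 2 tools called 24.3% and 27.4% of all tested genes, and no such share was taken by unadjusted p. PPARGC1A, the coactivator PGC-1alpha, rose from 1.190 ± 0.498 to 3.305 ± 0.271 CPM, which is 1.46 on the log2 scale, on 249 counts in all (edgeR adjusted p = 0.000827). The nuclear receptor ESRRA rose from 35.78 ± 3.25 to 42.66 ± 1.64 CPM and GABPA, the ETS factor whose core letters stand in many of the members' promoters, from 37.32 ± 2.83 to 43.57 ± 1.64 CPM (edgeR adjusted p = 0.0133 and 0.0254). ESRRA did not pass without PTPRZ-nc replicates 1 or 3 or PTPRZ-Si replicate 2 (edgeR adjusted p = 0.0684, 0.063 and 0.0681), and GABPA not without PTPRZ-nc replicates 1 or 2 or PTPRZ-Si replicates 2 or 3 (0.0818, 0.0646, 0.0915 and 0.0975).

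Proteins of the cytosolic ribosome gave 7 higher and 0 lower of 77 tested genes in edgeR's test (median 0.06). That is 9.09% called, all higher, against 27.4% called and 14.0% higher over all tested genes. By unadjusted p under 0.05 15 were higher and 2 lower, and DESeq2 called 3 higher and 0 lower and limma-voom 7 higher and 0 lower. The shares called over all tested genes were 24.3% with DESeq2 and 27.4% with limma-voom. No share by unadjusted p was taken over all genes, so the 15 and 2 have no background to be read against. Among those that rose were RPL22 (log2 fold change 0.21, edgeR adjusted p = 0.00757) and RPS27 (0.52, edgeR adjusted p = 0.0116). RPS27 did not pass with DESeq2 (adjusted p = 0.184), and without PTPRZ-Si replicate 2 its log2 fold change was 0.20 (edgeR adjusted p = 0.0263). Genes of this family have many near-identical pseudogenes, so their counts are uncertain. Differences between the lists were not tested.

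**Figure D4:**
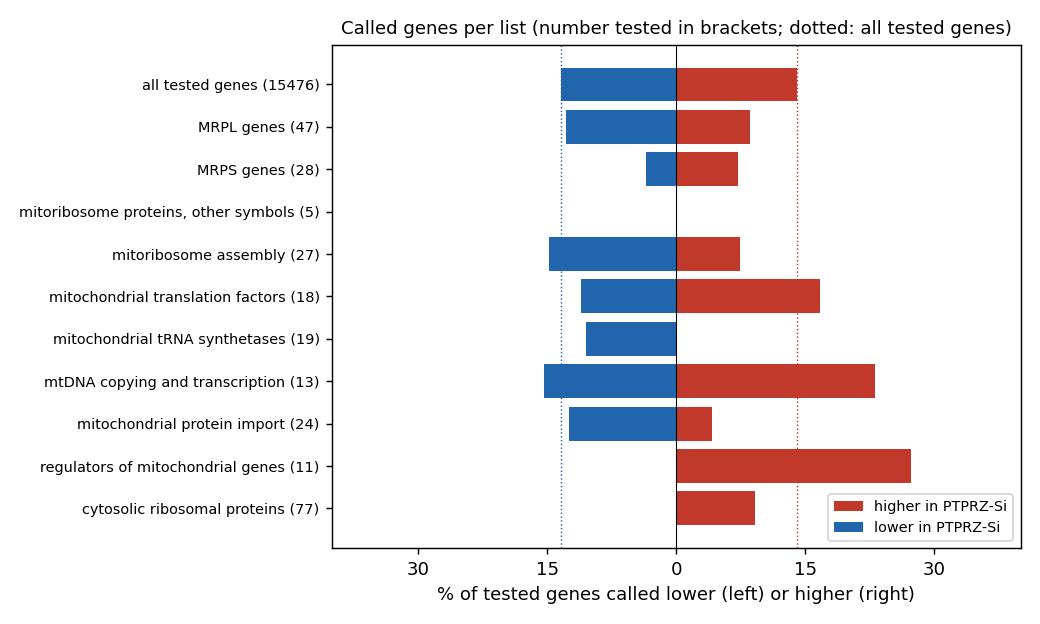
Percent of tested genes called lower (blue, to the left) and higher (red, to the right) in the knockdown, by list, with the number of tested genes in brackets. Dotted lines stand at the shares over all tested genes, 13.4% lower and 14.0% higher. MRPS genes lie inside both lines, at 3.57% and 7.14%, and MRPL genes at 12.8% and 8.51%.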

How the data were processed

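The authors deposited raw counts of read pairs for each gene. Per the file headers they used featureCounts 2.0.1 for paired reads on the exons of Ensembl release 107 (GRCh38), with no option set for strand or for pairs that fit several places or genes. The alignment names contain hisat, with no version. A gene name table gave symbols for 42054 rows and GENCODE 29 for another 16371, and 3435 had none. Biotypes, coordinates and exon lengths are those of GENCODE 29.

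The test was that of edgeR 4.0.16, run in R 4.3.3 (filterByExpr, 15476 genes, TMM scaling, glmQLFit and glmQLFTest, 2-sided, Benjamini-Hochberg over all tested genes, called at 0.05). SE is the log2 fold change over the root of F, and intervals use the test's degrees of freedom. The comparison was also run on simulated counts that had the same spread for every gene, unlike these libraries. The outcome is not given here and is no support for the calls. Alternatives used limma 3.58.1 and DESeq2 1.42.0. Limits for a count of 0 use 3 counts. The members, lists and subunit split were chosen with earlier results of these data known. Named were up to 10 called members in each direction, the 4 highest and 4 lowest per length, the 3 nearest to no change, the MRPS18 paralogs, members that failed the filter, overlap other genes or lie in regions of few counts, and the called genes of each list (the 3 with the smallest p in each direction where over 6). NDUFA4L2, COL1A1, CD14 and PECAM1 were named after their values were seen. Some genes that this rule would name are not reported here.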

Additional observations from a re-analysis of the deposited data

How the results depend on the processing

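The counts and medians were recomputed under 13 alternatives: RLE size factors, scaling by total counts, DESeq2, limma-voom, no filter on low counts, a mean of at least 5 CPM, a replicate block, and each of the 6 libraries left out. All 13 called members kept their direction in each. MRPL genes called higher were 2, not 4, with DESeq2 and with no filter, and with no filter the MRPS median was -0.018. DESeq2 called 13.3% of the members and 24.3% of all tested genes. With no filter 14.3% of 77 members and 13% of 32282 genes were called, so the lower share among members was not seen there. With subunits by structure, chosen after seeing the data, 1 small subunit gene was higher (median 0.017). With 1 library left out, members called higher ran from 3 to 7 and lower from 2 to 8, MRPL genes higher from 1 to 4 and lower from 2 to 7, and MRPS genes higher from 1 to 3 and lower from 0 to 2. The share called over all tested genes ran from 19.9% to 27.6% in these fits. The medians then ran from -0.049 to -0.006 over members, -0.071 to -0.023 over MRPL and -0.021 to 0.025 over MRPS genes, so the sign of the MRPS median is not settled. Called members numbered 14 with the replicate block, all 13 and MRPL54, which is 18.7% against 26.5% of all tested genes. Same-numbered libraries correlated at 0.0282, 0.0301 and 0.0247 in their deviations from group means, each library best with its own number, and the numbers were not taken as pairs. Members near no change switched sign, none past the threshold. With total counts these were MRPL12 (-0.0065) and MRPL37 (-0.0016), and with no filter MRPL12 (-0.0022). With 1 library left out the log2 fold change ran from -0.0838 to 0.1109 for MRPL12, -0.0025 to 0.0181 for MRPL37, -0.0135 to 0.1163 for MRPL46, -0.1047 to 0.0298 for MRPS18A, -0.0669 to 0.2703 for MRPS24, -0.0537 to 0.0616 for MRPS25 and -0.0678 to 0.0826 for MRPL41. The cause was not tested.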
